A study of Homo sapiens with 6 samples.

Results

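CRYM and 5 genes of thyroid hormone action, THRA, THRB, DIO1, DIO2 and KLF9, were examined in HK2 cells after knockdown of OCRL. The 6 genes were taken by their symbol in the platform annotation, out of 11963 genes with a symbol of their own, and they had 17 of the 22215 probe sets tested. Of these 17, 14 named 1 gene: 1 for CRYM, 4 for THRA, 1 for THRB, 1 for DIO1, 4 for DIO2 and 3 for KLF9. The other 3 named THRA together with NR1D1. CRYM was chosen because its level differed between these same arrays, so the differences of the 6 genes are given as a description, with no test.

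HK2 cells are an immortalised human proximal tubule line, and OCRL is the inositol phosphatase mutated in Lowe syndrome. Knockdown cells received OCRL siRNA and control cells a non-targeting siRNA, both at 30% confluence and for 96 h, with 1 single-colour array per sample and 3 arrays per group from independent experiments. All cells were of this 1 line, received the same transfection reagent and grew in medium with insulin, transferrin and selenium, the element built into the deiodinase enzymes. The labels do not say which serum or thyroid hormone level the medium held. Only 1 OCRL siRNA treatment was set against the control, so the fall of OCRL and any other effect of that siRNA cannot be told apart.

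Thyroid hormone enters cells through transporters, and deiodinases then turn the prohormone T4 into active T3 or inactivate it. T3 binds the nuclear receptors encoded by THRA and THRB, which sit on DNA with a retinoid X receptor and switch between corepressors and coactivators. CRYM encodes mu-crystallin, a cytosolic protein that binds T3 with NADPH and is also a ketimine reductase. KLF9 encodes a zinc finger transcription factor that T3 and glucocorticoids induce in several tissues. In the kidney, DIO1 is known as an enzyme of the proximal tubule.

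OCRL mRNA, by the brighter of its probe sets, fell to a mean log2 value of 7.47 ± 0.064 in OCRL siRNA cells, against 9.49 ± 0.014 in control siRNA cells (SD, n = 3 each). The log2 difference was -2.02 (SE 0.048, adjusted p = 1.24e-05, limma), which left 24.6% of the control level. The dimmer probe set fell by 1.01 (SE 0.102, adjusted p = 7.64e-04, limma) and left 49.7%. Two-sided exact permutation gave p = 0.1 for each, the smallest p for 3 arrays against 3. Array medians ran between 7.27 and 7.30 in OCRL siRNA cells and between 7.23 and 7.24 in control siRNA cells. Lower quartiles ran between 5.23 and 5.31, and r across probe sets was at least 0.998 within a group and at most 0.995 between groups. Of the 15 measured kidney epithelium markers, 3 rose and 4 fell in OCRL siRNA cells, which is 46.7% called, beside 26.0% of all genes with 1 probe set each. The keratin gene KRT7 fell by 1.49 (SE 0.047, adjusted p = 2.54e-05, limma) and the cadherin gene CDH6 by 1.04 (SE 0.041, adjusted p = 3.22e-05, limma), or by 0.41 in the mean of the CDH6 probe sets. In the mean of the KRT7 probe sets the log2 difference was -0.998. The peptidase genes DPP4 and MME rose by 0.68 (SE 0.053) and 0.61 (SE 0.056). LRP2, AQP1 and ANPEP were dimmer than the lower quartile on all 6 arrays, and ANPEP was the other rise (log2 difference 0.56, SE 0.130, adjusted p = 0.0222). The other falls were PAX8 (log2 difference -0.29, SE 0.040) and KRT8 (-0.38, SE 0.057). The summed linear signal of these 15 markers was 18820 to 19390 in OCRL siRNA cells and 22940 to 24390 in control siRNA cells. Bright genes weigh most in this sum, among them CDH6 (11.22 in OCRL siRNA cells, 12.26 in control siRNA cells) and KRT7 (9.58 and 11.06). The part of this marker shift in the results below was not tested. Of 8 markers of thyroid follicular cells, 4 of leukocytes and 5 of endothelium, 0 passed in limma (1, 0 and 2 had an unadjusted p under 0.05). Other scalings added calls: SLC5A5 of the thyroid list was lower after quantile normalization and after median centring (log2 difference -0.19 and -0.21), the endothelial gene PECAM1 higher after quantile normalization (0.17), and the endothelial gene TEK and the kidney gene LRP2 lower after median centring (-0.17 and -0.23). LUM fell among 6 fibroblast markers (log2 difference -0.61, SE 0.110, adjusted p = 0.00808, limma), and the other 5 did not pass. The summed linear signal of the 6 was 788.1 to 812.7 in OCRL siRNA cells and 963.1 to 1117 in control siRNA cells. LUM was the brightest of the 6, at 8.62 in OCRL siRNA cells and 9.23 in control siRNA cells, and so weighs most in this sum.

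CRYM was the member with the large difference. Its probe set, 205489_at, read 9.57, 9.64 and 9.72 on the log2 scale in OCRL siRNA cells, against 7.64, 7.90 and 7.54 in control siRNA cells. The 3 knockdown arrays were all higher than the 3 control arrays, with 1.67 log2 units between the lowest knockdown and the highest control value. The group means were 9.64 ± 0.071 in OCRL siRNA cells and 7.70 ± 0.186 in control siRNA cells (SD, n = 3 each), a log2 difference of 1.95 (SE 0.096) or 3.86-fold. In rank among 11963 genes with 1 probe set each, CRYM had the 5th highest log2 difference. In brightness it exceeded 75.0% to 76.6% of the probe sets on the OCRL siRNA arrays and 53.5% to 57.5% on the control siRNA arrays. CRYM mRNA was therefore read above the array median in both groups. The control array of replicate 2 gave the highest control value, and without it the difference was 2.05. The RefSeq table places 2 other genes across the CRYM locus, among them ABCA15P, also listed as CRYM-AS1, and the platform annotation names this probe set for CRYM alone. In whole-culture RNA, more cells with CRYM and more CRYM RNA per cell cannot be told apart.

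**Figure D1:**
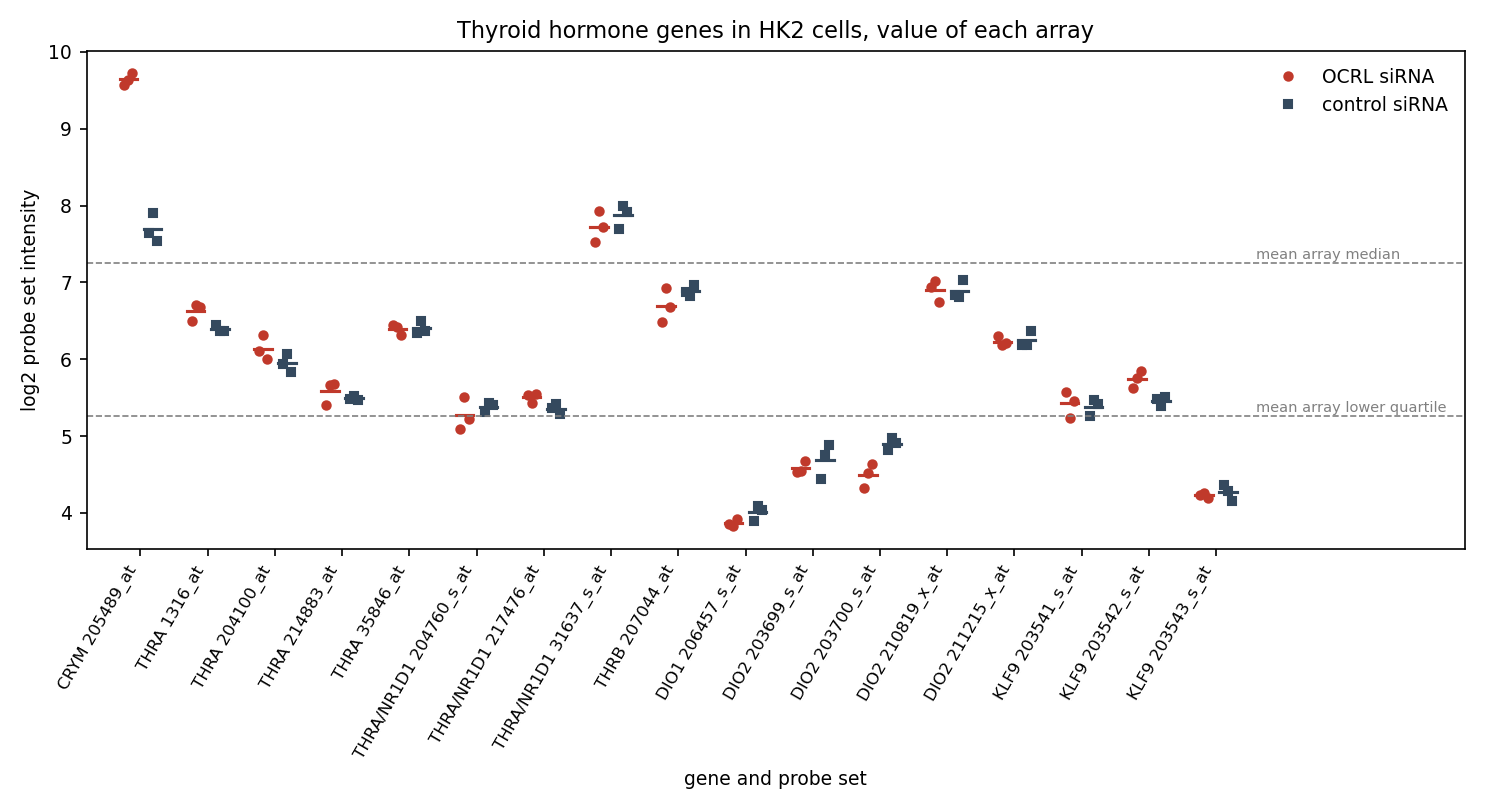
Log2 intensity (vertical axis) of each of the 17 probe sets (horizontal axis) on every array. Circles are the 3 OCRL siRNA arrays and squares the 3 control siRNA arrays, short lines are group means, and dashed lines mark the mean array median and lower quartile. CRYM stands between 9.57 and 9.72 in OCRL siRNA cells and between 7.54 and 7.90 in control siRNA cells, and the other probe sets of 1 gene lie below the median.

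The other members differed far less. Over their 13 probe sets the log2 differences ran from -0.41 to 0.28, and each of these 13 lay below the median of every array. Dim probe sets give compressed differences after RMA, so these sizes are less certain than that of CRYM. OCRL siRNA and control siRNA values did not overlap in 4 of the 14 probe sets of 1 gene, 3 higher (CRYM, 1 of THRA and 1 of KLF9) and 1 lower (of DIO2), as in 40.7% of all tested ones. Nothing is read from this count, since the members were chosen on this contrast. Of all tested probe sets 23.1% passed an adjusted p of 0.05 in limma, with 13.2% higher and 9.89% lower. Of all called probe sets 57.2% were higher in the deposited scaling, with 52.2% under quantile normalization and 42.0% under median centring. The median size of the log2 difference was 0.121 over the 14 probe sets and 0.110 over all tested ones. Replicates of the 14 probe sets had a median SD of 0.112 in OCRL siRNA cells and 0.099 in control siRNA cells, and over all tested probe sets it was 0.067 in OCRL siRNA cells and 0.076 in control siRNA cells.

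The receptor gene THRA was read by 4 probe sets of its own, which did not give 1 answer. The brightest, 1316_at, read 6.50, 6.70 and 6.68 in OCRL siRNA cells and 6.44, 6.37 and 6.37 in control siRNA cells. The groups did not overlap, but only 0.06 log2 units lay between them. The log2 difference was 0.23 (SE 0.063), or 1.18-fold. Probe set 204100_at read 6.10, 6.31 and 6.0 in OCRL siRNA cells and 5.94, 6.07 and 5.83 in control siRNA cells, a log2 difference of 0.19 (SE 0.096) with overlapping groups. Probe set 214883_at, designed on the same sequence record as the brightest one, read 5.41, 5.67 and 5.68 in OCRL siRNA cells and 5.48, 5.52 and 5.47 in control siRNA cells. Its log2 difference was 0.09 (SE 0.079), and the lowest of its 6 values was a knockdown array. Probe set 35846_at read 6.45, 6.42 and 6.32 in OCRL siRNA cells and 6.34, 6.50 and 6.37 in control siRNA cells, with a log2 difference of -0.01 (SE 0.062). The groups thus overlapped in 3 of the 4 THRA probe sets. Over 11 alternative settings the log2 difference of 1316_at ran between 0.19 and 0.29.

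In the RefSeq gene table THRA overlaps NR1D1, which encodes the heme-binding repressor REV-ERB alpha, and 3 probe sets carried both names. Without knowledge of the strand each probe reads, the signal of these 3 cannot be assigned to THRA or NR1D1. The brightest of them, 31637_s_at, read 7.53, 7.93 and 7.72 in OCRL siRNA cells and 7.70, 8.0 and 7.92 in control siRNA cells (log2 difference -0.15, SE 0.118). The groups overlapped widely. Probe set 204760_s_at, whose sequence record is an NR1D1 transcript in RefSeq, read 5.09, 5.51 and 5.22 in OCRL siRNA cells and 5.31, 5.43 and 5.41 in control siRNA cells (log2 difference -0.11, SE 0.106). Probe set 217476_at read 5.53, 5.43 and 5.55 in OCRL siRNA cells and 5.36, 5.42 and 5.28 in control siRNA cells (log2 difference 0.15, SE 0.057), with 0.01 log2 units between the groups. Each of these 3 differences kept its sign in 11 alternative settings.

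THRB, which encodes the beta receptor, had the single probe set 207044_at. It read 6.48, 6.93 and 6.68 in OCRL siRNA cells and 6.88, 6.82 and 6.96 in control siRNA cells. The knockdown array of replicate 2 lay among the controls and the other two lay below them. The means were 6.70 ± 0.225 in OCRL siRNA cells and 6.89 ± 0.071 in control siRNA cells (SD, n = 3 each), with a log2 difference of -0.19 (SE 0.111). The spread among knockdown arrays was thus as large as the difference, and the difference was -0.086 without replicate 1 of that group and -0.31 without its replicate 2. The probe set exceeded 40.7% to 46.6% of the probe sets on the 6 arrays.

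**Figure D2:**
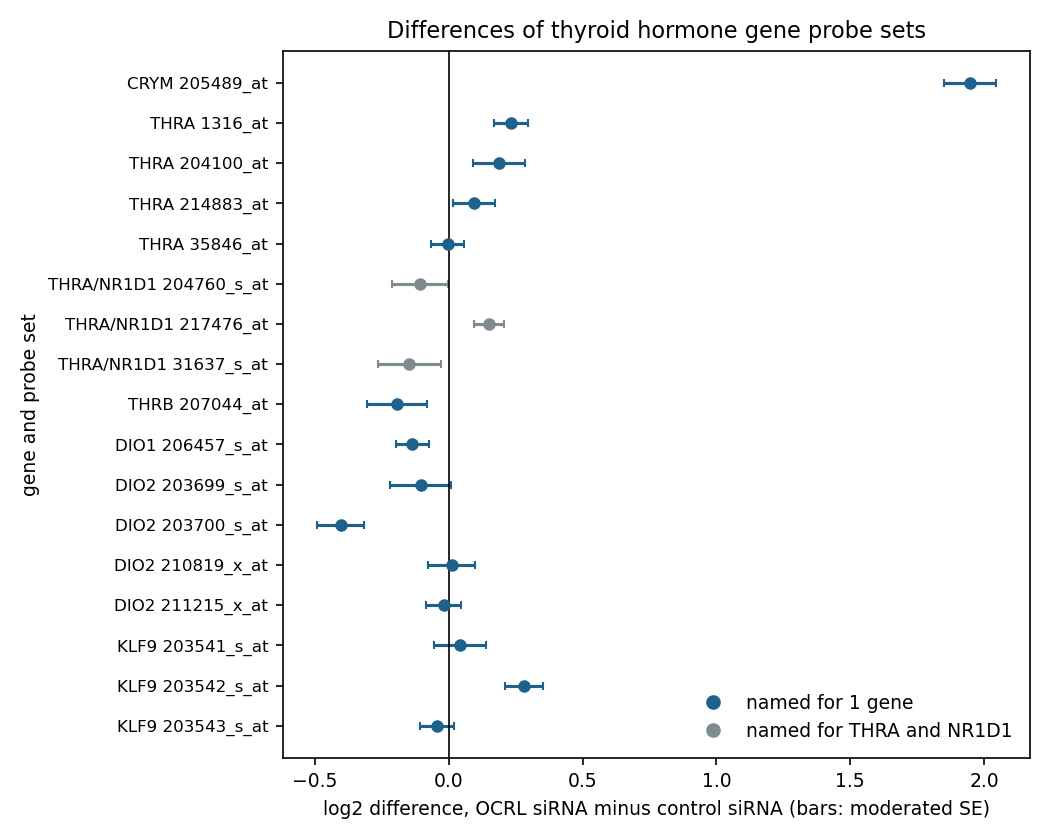
Log2 difference, OCRL siRNA minus control siRNA (horizontal axis), of each probe set of the 6 genes (vertical axis), with bars for the moderated SE. Blue points name 1 gene and grey points name THRA and NR1D1. CRYM stands at 1.95, and the other blue points lie between -0.41 and 0.28, with probe sets of 1 gene on both sides of 0 for THRA, DIO2 and KLF9.

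DIO1 encodes the deiodinase of liver and kidney, and its promoter is a textbook target of T3. A stretch of it is shown because DIO1 mRNA is a classical readout of the receptors. The stretch holds the receptor half-site AGGTCA, read here on the opposite strand as TGACCT, 105 bases before the annotated start. It lies at chr1:53894052-53894117 on the plus strand of GRCh38.p14 (RefSeq), and the capitals mark the half-site.
DIO1: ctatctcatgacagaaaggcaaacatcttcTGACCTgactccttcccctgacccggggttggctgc
Of 7 promoters in RefSeq for THRA, THRB, DIO1, DIO2 and KLF9 (CRYM was not matched), each with 250 bases before and 50 after the start, this was the 1 with AGGTCA on either strand. Among all 35116 promoters of that length 13.8% held it, and the direct repeat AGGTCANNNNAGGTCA was in 7 of them and in none of the members. A match is only a match of letters.

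The DIO1 probe set 206457_s_at had the lowest values of the 14. It read 3.86, 3.83 and 3.92 in OCRL siRNA cells and 3.90, 4.09 and 4.04 in control siRNA cells. It was dimmer than the lower quartile on all 6 arrays and exceeded 5.87% to 8.72% of the probe sets. The log2 difference was -0.14 (SE 0.062) with overlapping groups. At this brightness a low DIO1 level and the background of the array cannot be told apart.

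DIO2 encodes the deiodinase that makes T3 inside cells, and its 4 probe sets did not give 1 answer. The dim probe set 203700_s_at read 4.32, 4.52 and 4.64 in OCRL siRNA cells, against 4.82, 4.97 and 4.91 in control siRNA cells. All knockdown values lay below all control values, by at least 0.18, and the log2 difference was -0.41 (SE 0.089), which left 75.5% of the control signal. Over 11 alternative settings it ran between -0.48 and -0.32. The other dim probe set, 203699_s_at, read 4.53, 4.55 and 4.67 in OCRL siRNA cells and 4.44, 4.75 and 4.88 in control siRNA cells (log2 difference -0.11, SE 0.114). Its groups overlapped, and both dim probe sets were under the lower quartile on all 6 arrays. The brightest, 210819_x_at, read 6.94, 7.02 and 6.75 in OCRL siRNA cells and 6.84, 6.81 and 7.03 in control siRNA cells (log2 difference 0.01, SE 0.088). The fourth, 211215_x_at, read 6.30, 6.18 and 6.21 in OCRL siRNA cells and 6.19, 6.19 and 6.37 in control siRNA cells (log2 difference -0.02, SE 0.064). These last pairs overlapped. The ending _x_at marks probe sets that can bind other transcripts, so the DIO2 level is uncertain.

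KLF9 was read by 3 probe sets, of which 1 had groups that did not overlap. The brightest, 203542_s_at, read 5.62, 5.76 and 5.85 in OCRL siRNA cells and 5.48, 5.39 and 5.51 in control siRNA cells. The gap was 0.10, and the log2 difference was 0.28 (SE 0.071), or 1.22-fold. Over 11 alternative settings it ran between 0.23 and 0.34. Probe set 203541_s_at read 5.57, 5.24 and 5.46 in OCRL siRNA cells and 5.26, 5.47 and 5.42 in control siRNA cells (log2 difference 0.04, SE 0.097). Probe set 203543_s_at read 4.23, 4.26 and 4.19 in OCRL siRNA cells and 4.36, 4.29 and 4.16 in control siRNA cells (log2 difference -0.05, SE 0.063). Both had overlapping groups, and 203543_s_at was under the lower quartile on all 6 arrays.

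The genes around this pathway were described by 10 lists of 170 genes, of which 138 were measured under a name, with 1 probe set per gene. In limma 24 of the 138 rose, 16 fell and 98 did not pass, which is 29.0% called, beside 26.0% of all 11963 genes. By direction, 15.5% of all 11963 genes were called higher and 10.5% lower in OCRL siRNA cells. The median log2 difference was 0.002 over the 138 and 0.001 over all genes. The number that fell was 8 without OCRL siRNA replicate 2, 10 without OCRL siRNA replicate 3 and 9 without control replicate 3. After median centring 22 rose and 21 fell. Without the _s_at and _x_at probe sets, 94 of the 138 remained, and 8 of these rose and 7 fell, while 17 of the 94 were called with their brightest probe set.

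Of 10 genes of hormone transport and binding, SLCO4A1, an organic anion transporter that carries thyroid hormones, rose and 9 did not pass. Of the 10, 5 were dimmer than the lower quartile on all 6 arrays. SLCO4A1 read 12.03, 12.09 and 12.07 in OCRL siRNA cells and 11.38, 11.43 and 11.38 in control siRNA cells, 1.59-fold (log2 difference 0.67, SE 0.043, adjusted p = 1.31e-04, limma). SLC7A5, the light chain of a hormone-carrying amino acid transporter, was at 9.46 in OCRL siRNA cells and 9.62 in control siRNA cells (adjusted p = 0.0678), and it was called lower after quantile normalization (0.0305) and median centring (0.0336). The list median was -0.03. Of 18 receptor partners and coregulators, 1 rose and 2 fell. TBL1XR1, a subunit of the corepressor complex, rose 1.30-fold (log2 difference 0.38, SE 0.046, adjusted p = 0.00158). Its relative TBL1X and the Mediator subunit MED1 fell by 0.17 each (SE 0.047 and 0.049), and both lost their calls without any 1 of the 6 arrays and with the replicate block (adjusted p = 0.0643 to 0.136). The retinoid X receptor gene RXRA was at 9.61 in OCRL siRNA cells and 9.53 in control siRNA cells, and RXRB at 9.60 in both, neither of which passed. The other, dimmer RXRA probe set was called higher in OCRL siRNA cells. The list median was -0.02.

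Of 9 genes of deiodinase control and selenoprotein synthesis, 1 rose and 2 fell. SEPHS1, of the selenophosphate synthetase family, rose by 0.24 (SE 0.039, adjusted p = 0.00477, limma), and none of its other probe sets was called. MARCHF6 and UBE2G2, a ubiquitin ligase and a conjugating enzyme known to act in the breakdown of the type 2 deiodinase, fell by 0.21 (SE 0.044) and 0.17 (SE 0.045). UBE2G2 lost its call without any 1 of the 6 arrays and with the replicate block (adjusted p = 0.0573 to 0.116), and MARCHF6 without OCRL siRNA replicate 2 or control replicate 2 (0.0524 and 0.0529). With the mean of each gene's probe sets all 3 calls were lost: SEPHS1 was at 0.10 (adjusted p = 0.0706), MARCHF6 at -0.11 (0.171) and UBE2G2 at -0.014 (0.885). The list of hormone sulfation and glucuronidation had 8 measured genes, of which 2 rose and 2 fell. None of these 4 lost the call in 12 alternative settings with the same probe set. The glucuronidation genes fixed in this list were not measured under a name, so that route was not read. The sulfotransferase gene SULT1C2 read 8.90, 8.87 and 8.98 in OCRL siRNA cells and 7.40, 7.04 and 7.06 in control siRNA cells, 3.36-fold (log2 difference 1.75, SE 0.102, adjusted p = 8.93e-05), and its probe set without the _s_at or _x_at ending gave 0.75. SULT1A1, a sulfotransferase that acts on iodothyronines, rose 1.65-fold (log2 difference 0.73, SE 0.044, adjusted p = 1.07e-04), though it has near-identical paralogs whose signal was not told apart. The steroid sulfatase gene STS fell 1.49-fold (log2 difference -0.57, SE 0.061), and PAPSS2, which makes the sulfate donor, fell by 0.22 (SE 0.040). The list median was 0.11.

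Of 24 genes known as hormone response genes in liver, heart, brain or other tissues, 5 rose, 4 fell and 15 did not pass, with a median of -0.001. Median centring gave 5 and 5, since ATP2A2, the calcium pump gene, was then called lower (adjusted p = 0.0350, limma). The mitochondrial fatty acid importer gene CPT1A rose 1.31-fold (log2 difference 0.39, SE 0.054) and the neuronal gene NRGN 1.53-fold (0.61, SE 0.071). The lipid synthase gene FASN fell 1.40-fold (-0.48, SE 0.049, and -0.25 in the mean of its probe sets), and the coactivator gene PPARGC1A fell 1.27-fold (-0.35, SE 0.048). Genes that T3 is known to raise were thus found on both sides.

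**Figure D3:**
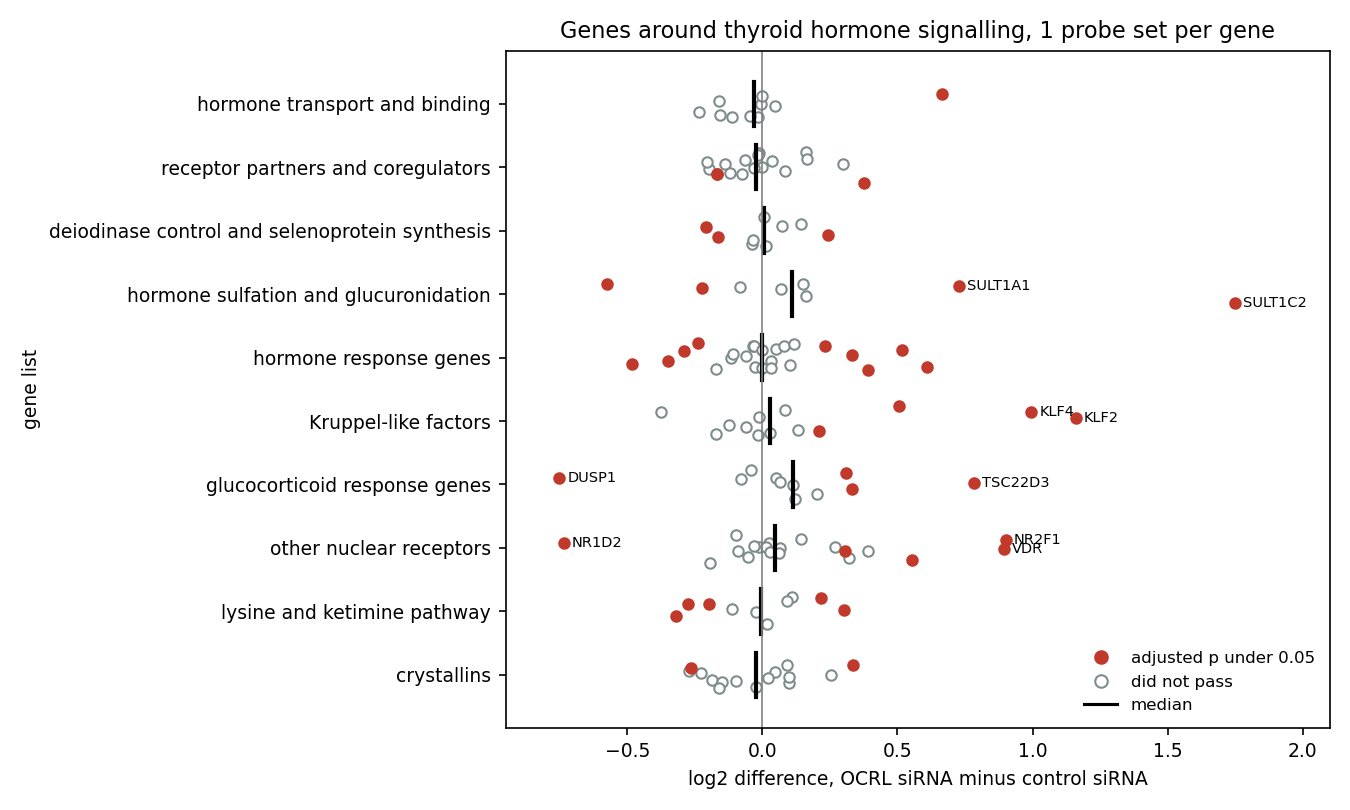
Log2 difference, OCRL siRNA minus control siRNA (horizontal axis), of each measured gene in the 10 lists (vertical axis). Filled points passed an adjusted p of 0.05 in limma, open points did not, and black bars are list medians. SULT1C2 (1.75) and KLF2 (1.16) stand highest, and the list medians lie near 0.

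Among 13 other Krüppel-like factor genes, relatives of KLF9, 4 rose and 9 did not pass. KLF2, known from endothelium, read 9.13, 9.07 and 9.02 in OCRL siRNA cells and 8.09, 7.91 and 7.75 in control siRNA cells, 2.23-fold (log2 difference 1.16, SE 0.086, adjusted p = 2.24e-04, limma). KLF4, a factor of epithelial differentiation, read 8.68, 8.62 and 8.70 in OCRL siRNA cells and 7.82, 7.63 and 7.57 in control siRNA cells, 1.99-fold (log2 difference 1.00, SE 0.071, adjusted p = 1.97e-04). In the mean of the KLF4 probe sets the log2 difference was 0.74. KLF3 rose by 0.51 (SE 0.100) and KLF10 by 0.21 (SE 0.046). KLF10 lost its call without OCRL siRNA replicate 1 or 3, without control replicate 2 or 3 and after median centring (adjusted p = 0.0554 to 0.0706). KLF7 was called lower after quantile normalization (log2 difference -0.15) and median centring (-0.17). The list median was 0.03 as deposited and -0.02 after median centring.

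Of 11 glucocorticoid response genes, fixed because KLF9 answers to glucocorticoids as well, 3 rose and 1 fell, with a median of 0.12. TSC22D3, known as GILZ, rose 1.72-fold (log2 difference 0.78, SE 0.050, adjusted p = 1.27e-04, limma), CEBPD rose by 0.33 (SE 0.043, with 0.20 in the mean of its probe sets and no call, at 0.070, without the _s_at and _x_at ones), and the phosphatase gene DUSP1 fell 1.68-fold (log2 difference -0.75, SE 0.069). The mean of a gene's probe sets gave 0.54 for TSC22D3 and -0.525 for DUSP1, whose other probe set was not called. The mineralocorticoid receptor gene NR3C2 rose by 0.31 (SE 0.072), with the call lost without OCRL siRNA replicate 3 or control replicate 2 or 3 (adjusted p = 0.0526 to 0.0743). Of 20 other nuclear receptor genes, 4 rose and 1 fell, with a median of 0.05. NR2F1 rose 1.87-fold (log2 difference 0.90, SE 0.086), the vitamin D receptor gene VDR 1.86-fold (0.89, SE 0.077, and 0.44 in the mean of its probe sets) and PPARG 1.47-fold (0.55, SE 0.049). NR1D2, the paralog of NR1D1, fell 1.66-fold (log2 difference -0.74, SE 0.055, adjusted p = 2.25e-04). NR4A2, named after its values were seen, was the other rise (log2 difference 0.31, SE 0.087), with the call lost in 6 of 11 alternative settings: after quantile normalization and median centring and without OCRL siRNA replicate 1 or 3 or control replicate 2 or 3 (adjusted p = 0.0573 to 0.135).

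CRYM is also an enzyme of the lysine and ketimine route. Of 10 genes of that route, 2 rose and 3 fell, with a median of -0.004. DHTKD1 and DLST, subunits of the oxoadipate dehydrogenase, rose by 0.30 (SE 0.048, adjusted p = 0.00465, limma) and 0.22 (SE 0.051). DLST lost its call without OCRL siRNA replicate 2 or 3 or control replicate 2 (adjusted p = 0.0553 to 0.0773). GCDH, the next dehydrogenase, fell by 0.28 (SE 0.069), and the proline synthesis gene PYCR1 fell by 0.20 (SE 0.051). AASS, the first enzyme of the saccharopine route and named after its values were seen, fell by 0.32 (SE 0.083). Each of these 3 calls was lost without OCRL siRNA replicate 1, 2 or 3 or control replicate 3, that of AASS also without control replicate 1 and in the mean of its probe sets (adjusted p = 0.127), and that of PYCR1 also without control replicate 2 and with the replicate block (adjusted p = 0.0537 to 0.105). Crystallins share little beyond the name with CRYM, and of 15 measured, 1 rose and 1 fell, with 1 and 3 after median centring. The small heat shock protein gene CRYAB rose 1.26-fold (log2 difference 0.34, SE 0.052, adjusted p = 0.00426), and CRYZL1 fell by 0.26 (SE 0.074), with the call lost in 6 of 12 alternative settings, among them without OCRL siRNA replicate 1, 2 or 3 or control replicate 1 or 3 (adjusted p = 0.0684 to 0.121). The list median was -0.02.

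The genes whose pattern over the 6 arrays was nearest to that of CRYM were sought by the root mean square distance between log2 values, each gene centred on its own mean, over 11956 other genes. The nearest were MMP1, a collagenase (distance 0.120, r = 0.993), AKR1C3, an aldo-keto reductase (0.143, r = 0.991), CHST2, a sulfotransferase of glycans (0.174, r = 0.988), ETV1, an ETS transcription factor (0.177, r = 0.989), and AKR1B10, another aldo-keto reductase (0.180, r = 0.986). The gene after these stood at 0.181. All r are over 6 arrays in 2 groups and are set by the step between the groups. MMP1 read 14.17, 14.17 and 14.14 in OCRL siRNA cells and 12.25, 12.23 and 12.22 in control siRNA cells. AKR1B10 read 7.07, 7.24 and 7.39 in OCRL siRNA cells and 5.23, 5.94 and 5.36 in control siRNA cells, a wider spread of controls than that of MMP1. AKR1C3 and AKR1B10 have close paralogs whose signal was not told apart.

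**Figure D4:**
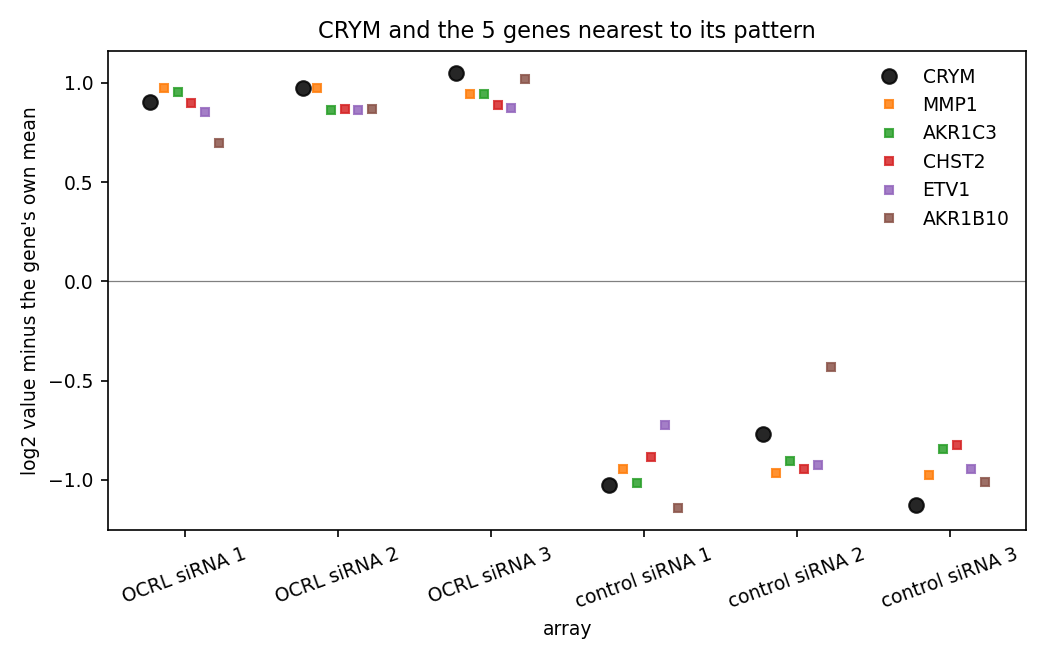
Log2 value of CRYM (large black circles) and of the 5 genes nearest to its pattern (squares), each minus the gene's own mean over 6 arrays (vertical axis), by array (horizontal axis). All 6 genes stand above 0 on the 3 OCRL siRNA arrays and below 0 on the 3 control siRNA arrays, which follows from how they were chosen.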

How the data were processed

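RNA of HK2 cells was hybridised to Affymetrix arrays, 3 per group. The authors deposited log2 intensities per probe set, normalised across arrays. The tools affy and RMA come from the submitters' processing notes, without versions. Of 22277 probe sets, 62 AFFX controls were left out. Genes were named from GEO's platform annotation (19064 probe sets with 1 symbol, 1043 with several, 2108 unnamed here), and a gene was represented by its brightest probe set with 1 symbol. The comparison was fitted by limma 3.58.1 (R 4.3.3, group as the only term, two-sided, Benjamini-Hochberg over 22215 probe sets, threshold 0.05), after a check on simulated data. Differences are OCRL siRNA minus control siRNA, and SE is moderated. Precision is set by the small number of arrays.

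The members and gene lists were chosen with earlier results of these data known. Named genes were the members, OCRL, from each pathway list the called genes with the lowest p (at most 4, or 1 gene where no call was made), and the 5 genes nearest to CRYM. A few list and marker genes beyond this rule (SLC7A5, RXRA, RXRB, ATP2A2, KLF7, SLC5A5, NR4A2, AASS, LRP2, AQP1, ANPEP, KRT7, KRT8, PAX8, CDH6, DPP4, MME, PECAM1, TEK, LUM) were named after their values were seen. Alternatives were the replicate block, each array left out, quantile normalization, median centring, trend and robust eBayes, array weights, dim probe sets left out, and other choices of probe set. Figures were drawn with matplotlib 3.10.9.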

Additional observations from a re-analysis of the deposited data

How the results depend on the processing

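The CRYM log2 difference ran from 1.87 to 2.05 with single arrays left out and moved by less than the control arrays' SD (0.186) in all 11 alternatives, by more than the OCRL siRNA arrays' SD (0.071) without control replicate 2 or 3. That of OCRL ran from -2.05 to -1.99 with single arrays left out, past the threshold in all 11. The number of probe sets called, 5137, was 3576 to 4898 with single arrays left out and at most 6378 (trend and robust eBayes). Median centring gave 22 pathway genes that rose and 21 that fell, and trend and robust eBayes gave 26 and 20. Pathway genes that rose numbered 19 to 25 with single arrays left out, and 8 without the _s_at and _x_at probe sets. Those that fell numbered 8 to 14 and 7. In the last setting 94 of 138 pathway genes had a probe set, of which 16.0% were called, against 18.1% of these 94 with the brightest probe set. Over all genes the shares were 22.1% and 25.4%. Taking the mean of a gene's probe sets gave log2 differences of 0.13 for THRA, 0.09 for KLF9 and -0.13 for DIO2, and the most variable probe set of DIO2 gave -0.41. The mean of a gene's probe sets gave 0 rises and 0 falls in the deiodinase list, 5 and 1 in the glucocorticoid list, 6 and 1 among other nuclear receptors and 4 and 2 among Krüppel-like factors. With this mean 28.1% of all genes and 32.6% of the 138 pathway genes were called, against 26.0% and 29.0% with the brightest probe set. The labels give same-numbered arrays only a number, and whether they were paired was not settled. Their deviations from the group means correlated at 0.142, 0.123 and -0.009 for numbers 1, 2 and 3. OCRL siRNA arrays 1 and 2 correlated best with the control array of their own number, and OCRL siRNA array 3 with control array 1 (0.040). With the replicate block limma called 4571 probe sets, 24 pathway genes higher and 12 lower, and the CRYM and OCRL differences were 1.95 and -2.02. Low signal limits DIO1, the dim DIO2 probe sets, KLF9 203543_s_at and the list genes under the lower quartile on every array.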
